A study of Homo sapiens with 12 samples.

Results

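The cytosolic ribosomal protein genes were chosen by name: protein-coding genes called RPL or RPS with a number and, at most, a paralogue ending, together with RPLP0, RPLP1, RPLP2 and RPSA. The rule found 84 of the 60612 genes that the deposited tables list, 52 of the large ribosomal subunit and 32 of the small. RPL10L, a further gene of such a name, was listed at 0 counts in all 6 HCCLM3 libraries and was not used. Of the 84, 83 passed the filter on low counts in each line, and the remaining gene, RPL3L, had between 0 and 16 counts in a library.

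The study grew 2 wild-type human lines in a tumor-on-a-chip and sequenced poly(A) RNA of each line from 3 libraries per group. HCCLM3 is a hepatocellular carcinoma line with high metastatic capacity, and LX2 is an immortalised line of hepatic stellate cells, the collagen-producing cells of the liver. The 4 groups were HCCLM3 alone, HCCLM3 with LX2, LX2 alone and LX2 with HCCLM3, so that each line was measured with and without its partner. The labels do not say how the lines were separated after shared culture, nor whether the 3 libraries of a group came from separate chips, so that the p-values rest on spread among libraries that may be technical only.

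Every ribosome carries 1 copy of nearly every ribosomal protein, and growing cells hold the messenger RNAs of these proteins at high levels. In vertebrates most of these messages start with a run of pyrimidines, the 5′ terminal oligopyrimidine tract, through which mTORC1 signalling sets their translation. Several members also act outside the ribosome: free RPL5 and RPL11 hold back MDM2 and so raise p53, and RPS6 is the classical substrate of S6 kinase.

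The tract is the sequence feature that joins these genes, and the stretches below show it for members whose levels differed between groups later in the text. They are RefSeq promoter sequences on GRCh38.p14, which had an entry for 67 of the 84 members, and each runs from 25 bases before the annotated start of transcription to 15 bases from it. Capitals mark the tract where a C at the start was followed by at least 4 pyrimidines.
RPS16 (chr19:39435935-39435974, minus strand): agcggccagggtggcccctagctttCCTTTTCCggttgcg
RPS27 (chr1:153990737-153990776, plus strand): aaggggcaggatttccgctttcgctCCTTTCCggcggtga
RPL36A (chrX:101390986-101391025, plus strand): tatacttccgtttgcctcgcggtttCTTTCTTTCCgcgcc
RPL22 (chr1:6199581-6199620, minus strand): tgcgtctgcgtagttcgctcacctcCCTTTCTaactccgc
RPS6 (chr9:19380222-19380261, minus strand): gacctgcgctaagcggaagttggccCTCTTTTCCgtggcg
RPLP0 (chr12:120201097-120201136, minus strand): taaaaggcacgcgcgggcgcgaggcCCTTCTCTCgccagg
RPS4X (chrX:72277234-72277273, minus strand): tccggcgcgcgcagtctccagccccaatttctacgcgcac
RPS27L (chr15:63157463-63157502, minus strand): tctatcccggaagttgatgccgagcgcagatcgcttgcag
The windows of RPS4X and RPS27L had no tract at the annotated start. Over the 67 members with an entry, 47 had one (70.1%), against 5.14% of the 27305 genes of the table and 8.70% of 69 mitochondrial ribosomal protein genes. Among called members the tract was found in 3 of the 3 that rose and 3 of the 4 that fell in HCCLM3, and in 7 of the 10 that rose and 9 of the 13 that fell in LX2. Of the members not called, 41 of 60 in HCCLM3 and 31 of 44 in LX2 held it.

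The next motifs were searched on both strands of the 300 bases around the start, each by itself. GGAAG, the core letters of ETS and GABP sites, stood in 94.0% of member promoters and 75.4% of all. GGGCGG, a GC box, stood in 58.2% and 48.3%, and TATAAA in 8.96% and 14.0%. AAGATGGC, the letters of a YY1 site, stood in 10.4% of member promoters, 3.52% of all promoters and 30.4% of the mitochondrial ribosomal protein promoters. GGAAG was in 3 of 3 members that rose in HCCLM3, 4 of 4 that fell and 56 of 60 not called, and in LX2 in 10 of 10 that rose, 11 of 13 that fell and 42 of 44 not called. A match is a description of letters in this window. RPL37, RPS2, RPL7, RPL5 and RPL8 are among the 17 members without an entry.

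The libraries held 61836616 to 77712308 counts. Keratins marked HCCLM3, with KRT8 at a mean of 555 FPKM in HCCLM3 alone, while the liver genes ALB and AFP stood at 0.531 and 0.718 FPKM and GPC3 had 0 counts. VIM marked LX2 at 176 FPKM, ACTA2 and PDGFRB stood at 1.37 and 2.38 FPKM, and COL1A2, SPARC and LRAT, textbook genes of stellate or fibroblast cells, had 0 counts in LX2 alone. Summed LX2 markers were at 48.8 to 74.8 CPM (counts scaled to the library's size) in HCCLM3 alone and 53.6 to 102 in HCCLM3 with LX2. LUM led this sum, with 7781 counts in HCCLM3 alone and 627 in LX2 alone. COL1A2, SPARC and LRAT had 502, 372 and 176 counts in HCCLM3 alone, so that the sum does not measure LX2 RNA by itself. Of the 8 LX2 markers tested in HCCLM3, 7 had a log2 fold change above 0 and LUM one below. Only the rise of LRAT was called (1.58, SE 0.34, adjusted p = 0.0196). Summed HCCLM3 markers were at 162 to 168 CPM in the libraries of LX2 alone and 145 to 152 in its co-culture. Among these, KRT19 had 0 counts in LX2 alone and 198 in all with HCCLM3, KRT8 rose in LX2 by 0.53 on the log2 scale (SE 0.068, adjusted p = 0.00174) and KRT18 fell by 0.38 (SE 0.034, adjusted p = 0.000398). In HCCLM3 itself these epithelial and liver markers summed to 5810 to 6600 CPM alone and 3470 to 4330 with LX2, with 1 of 8 rising and 3 falling. Summed blood cell markers, led by HBB and HBA1, were at 1.57 to 1.87 CPM in HCCLM3 alone and 121 to 163 in HCCLM3 with LX2, where 15 of the 16 tested rose and all 17 were detected, and at 1.24 to 2.65 in the LX2 libraries. AHSP, HBD and HBG1 had 0 counts in HCCLM3 alone.

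Ribosomal protein messages took a larger share of the RNA in HCCLM3 than in LX2, and the share overlapped between the groups of a line. They held 5.86% ± 0.445 of all counts in HCCLM3 alone and 6.23% ± 0.265 in HCCLM3 with LX2 (SD, n = 3 each). In LX2 they held 3.86% ± 0.0265 alone and 3.82% ± 0.0493 with HCCLM3 (SD, n = 3 each). The large subunit genes made up 3.28% to 3.96% of the counts of an HCCLM3 library and 2.30% to 2.38% of an LX2 library. The small subunit genes made up 2.12% to 2.56% and 1.48% to 1.52%. Pseudogenes named after members, of which the HCCLM3 table lists 1241, took 0.247% to 0.303% of HCCLM3 counts and 0.215% to 0.223% of LX2 counts. The shares stand side by side, since the tables of the lines were scaled separately.

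Per length, member levels spread widely within a line. FPKM means ran from 4.21 for RPS27L to 1060 for RPL8 in HCCLM3 alone, apart from RPL3L, with a median of 146 over members. In LX2 alone they ran from 6.64 for RPS29 to 551 for RPL7A, with a median of 119. The gene length behind the FPKM values seems close to the union of all annotated transcripts, which was not tested. Levels of genes with long alternative transcripts would then be low on this scale. Over the HCCLM3 libraries the highest members were RPL41, the smallest ribosomal protein, RPL8, which binds the ribosomal RNA core near the catalytic centre, and the zinc-binding RPS27. RPL41 stood at 1140, 943 and 994 FPKM alone and 1050, 1090 and 1070 with LX2. RPL8 stood at 1300, 1140 and 753 FPKM alone and 1190, 863 and 913 with LX2, and replicate 3 alone was the lowest of the 6. In LX2 the highest were RPL7A at 544 to 560 FPKM alone and 519 to 528 with HCCLM3, RPS2 at 394 to 432 and 428 to 467, and RPL41 at 427 to 462 and 399 to 407.

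In HCCLM3, growth with LX2 changed few members, and in opposite directions. Among the 5 that rose were RPL37, RPS16, RPL36A and RPS27, by 1.26 to 1.41 times, and RPL7, RPL22, RPS2, RPS6, RPLP0 and RPS4X fell, by 1.22 to 1.47 times. These 5 of 83 tested members are 6.02%, beside 10.1% of all 18045 genes tested that rose, and the 6 are 7.23%, beside 11.6% of all genes that fell (21.7% of all genes in either direction), with calls made by edgeR's quasi-likelihood test at a Benjamini-Hochberg adjusted p under 0.05. The median log2 fold change was -0.06 over members and 0.03 over all genes. In 9 members (10.8%) all co-culture libraries lay above all libraries of HCCLM3 alone and in 10 (12%) below, beside 22.1% and 21.0% of all genes. Rises and falls came from both subunits: 2 of 51 large and 3 of 32 small subunit members rose, and 3 and 3 fell. The 72 members that were not called ranged from -0.41 for RPL7L1 to 0.28 for RPL11, and in 8 of them the groups did not overlap. The matching share over all genes not called was not counted. In bulk RNA, fewer cells of a kind and less RNA per cell cannot be told apart.

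RPL37 (chr5:40825262-40835222), a zinc-binding protein of the large subunit, was at 387, 322 and 376 CPM in HCCLM3 alone and at 512, 528 and 495 CPM with LX2. The 2 groups did not overlap. Its log2 fold change was 0.50 (SE 0.086, adjusted p = 0.00941). RPS16 (chr19:39433137-39435949), whose tail reaches the P-site transfer RNA, was at 873, 718 and 805 CPM alone and at 1130, 1030 and 1070 CPM with LX2. All 3 co-culture libraries were above the highest library alone. Its log2 fold change was 0.43 (SE 0.087, adjusted p = 0.0167).

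The other rises were smaller. RPL36A (chrX:101390824-101396155), a protein of the tRNA exit site, was at 545 to 664 CPM alone and 772 to 813 with LX2, a log2 fold change of 0.37 (SE 0.086, adjusted p = 0.0259). RPS27 (chr1:153990762-153992155), a zinc-finger protein of the small subunit, was at 963 to 1160 and 1290 to 1410 CPM, a change of 0.34 (SE 0.085, adjusted p = 0.0326). Neither gene overlapped between the groups. RPL36A overlaps GLA on the opposite strand and a readthrough transcript on its own strand, so that its counts are uncertain; no source used here states whether strand was used in counting.

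RPL7, an RNA-binding protein of the large subunit, had the lowest fold change. It was at 2000, 1710 and 1890 CPM in HCCLM3 alone and at 1350, 1170 and 1290 CPM with LX2, a log2 fold change of -0.55 (SE 0.087, adjusted p = 0.00697). Every co-culture library was below every library alone. RPS2 (chr16:1962058-1964826), which lines the channel where messenger RNA enters, was at 3480, 2900 and 3220 CPM alone and at 2310, 2610 and 2240 CPM with LX2. These groups did not overlap either, and the change was -0.42 (SE 0.094, adjusted p = 0.0217). RPLP0 (chr12:120196699-120201211), the base of the ribosomal stalk that recruits translation factors, was at 1320, 1170 and 1220 CPM alone and at 1070, 983 and 964 CPM with LX2. Its change was -0.30 (SE 0.075, adjusted p = 0.0315), with the lowest library alone above the highest co-culture library.

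RPL22 (chr1:6185020-6209244), which binds RNA and is dispensable for ribosome function in many cells, was at 500 to 612 CPM alone and 417 to 429 with LX2, a change of -0.43 (SE 0.089, adjusted p = 0.018). RPS6 (chr9:19375715-19380236) was at 458 to 549 and 365 to 409 CPM, a change of -0.35 (SE 0.089, adjusted p = 0.0334). RPS4X (chrX:72255679-72276227), an RNA-binding protein of the small subunit, was at 1540 to 1810 and 1320 to 1460 CPM, a change of -0.29 (SE 0.081, adjusted p = 0.0464). The groups did not overlap in any of these 3 genes. RPL7, RPL22, RPS2, RPS6 and RPS4X overlap other annotated genes, RPL22 and RPS2 on the same strand.

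The number of members that rose or fell in HCCLM3 depended on the scaling. On library totals without TMM factors 15 members rose and 1 fell, and over all genes the split moved from 1829 higher and 2095 lower to 2977 and 1039, with a shift of the median of all genes by 0.17 on the log2 scale. The members' median lay 0.095 below that of all genes with TMM factors and 0.094 below it on totals. None of the 11 called members changed sign under any alternative, whereas 28 of the 62 members called under neither scaling did on totals. RPL37 and RPL7 were called under all 14 alternatives, and RPL22, RPLP0, RPS2, RPS4X and RPS6 lost their call on library totals. Without HCCLM3 alone replicate 3, or without HCCLM3 with LX2 replicate 3, only these 2 remained called (1 rose, 1 fell). Without HCCLM3 with LX2 replicate 1, 1 rose and 2 fell. Without its replicate 2, 3 and 3 did, and without HCCLM3 alone replicate 1, 5 and 2. In these fits 4.37% to 6.44% of all genes rose and 5.84% to 7.81% fell. The rise of blood cell markers and the lower sum of epithelial markers in HCCLM3 with LX2 went with these changes, and their part in them was not tested.

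**Figure D1:**
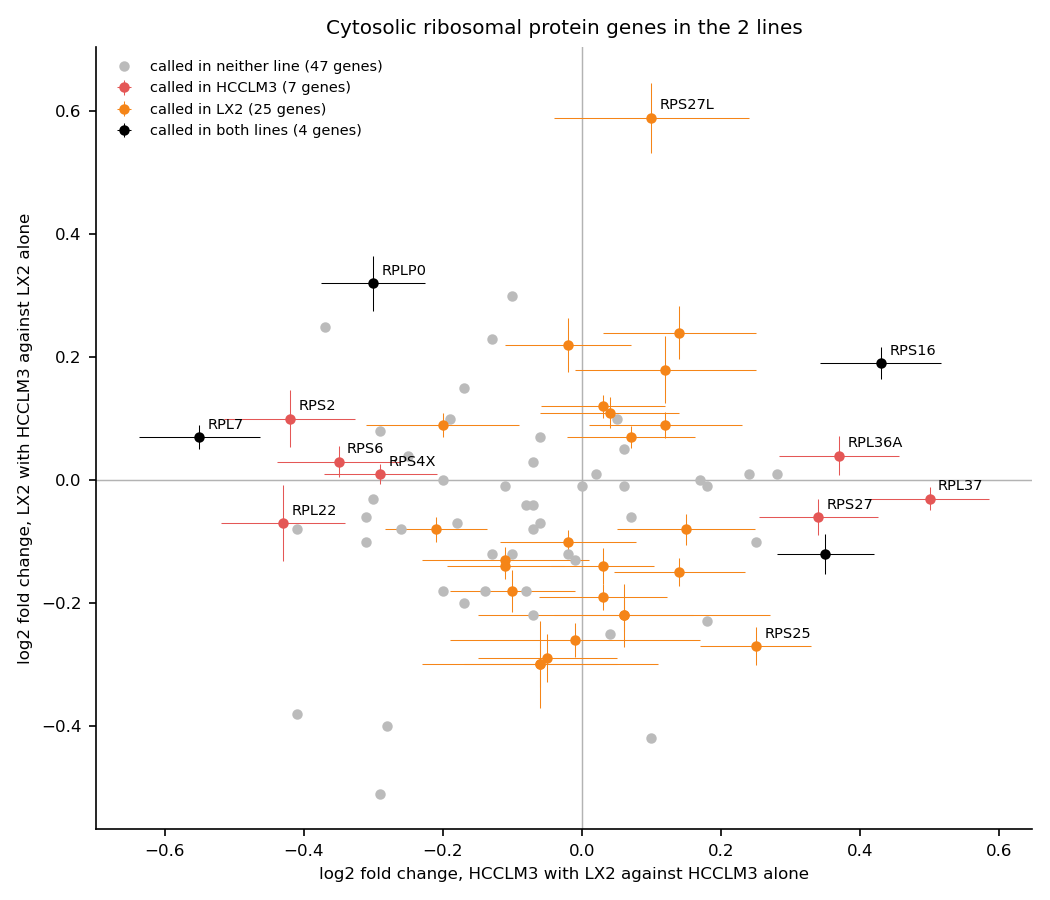
Log2 fold changes of the 83 tested members in HCCLM3 (x axis) and LX2 (y axis), co-culture against alone. Colours give the line in which the gene was called, whiskers are 1 SE for called genes, and RPLP0 and RPL7 lie upper left and RPS25 lower right.

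In LX2, as over all genes, more members were called than in HCCLM3, most with small changes. RPS27L rose by 1.5 times and RPLP0 by 1.25 times. Among the called falls the lowest fold changes were those of RPS26 and RPS21, which fell by 1.23 times each. Altogether 12 members rose (14.5%, beside 15.4% of the 19671 genes tested) and 17 fell (20.5%, beside 16.6%), where 31.9% of all genes were called in either direction; the share of members called is close to that of all genes. The median log2 fold change was -0.06 over members and 0.015 over all genes. In 17 members (20.5%) all co-culture libraries lay above all libraries alone and in 31 (37.3%) below, beside 24.0% and 24.0% of all genes. The SE of a member's log2 fold change had a median of 0.037 in LX2 and 0.10 in HCCLM3, so that changes down to 0.07 were called in LX2 and down to 0.29 in HCCLM3.

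RPS27L (chr15:63125872-63157499), a paralogue of RPS27 and a known p53 target, was at 101, 112 and 103 CPM in LX2 alone and at 162, 149 and 165 CPM with HCCLM3. Its log2 fold change was 0.59 (SE 0.057, adjusted p = 0.000543). The lowest co-culture library was above the highest library alone. RPLP0 was at 575, 605 and 552 CPM alone and at 686, 750 and 725 CPM with HCCLM3, a change of 0.32 (SE 0.045, adjusted p = 0.00272). Its groups did not overlap, and the direction was opposite to that in HCCLM3.

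RPL28 (chr19:55385932-55403250) was at 180 to 188 CPM alone and 205 to 223 with HCCLM3, a change of 0.24 (SE 0.043, adjusted p = 0.00766). RPL26L1 (chr5:172958729-172969721), a close copy of RPL26, was at 64.5 to 67.6 and 74.4 to 79.4 CPM, a change of 0.22 (SE 0.044, adjusted p = 0.0115). RPS16 was at 386 to 398 and 437 to 456 CPM, a change of 0.19 (SE 0.026, adjusted p = 0.00236). These groups did not overlap, and RPS16 was the only member called as a rise in both lines. RPL36 was at 103 to 105 and 112 to 128 CPM, with a change of 0.18 (SE 0.055) whose adjusted p of 0.0499 sat at the threshold. It lost the call under 8 of 14 alternatives. RPL28 and RPL36 overlap other annotated genes.

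Of the 6 called falls with the lowest fold changes in LX2, all but RPL31 are of the small subunit. RPS26 (chr12:56041351-56044676), which contacts messenger RNA at the exit channel, was at 120, 133 and 122 CPM alone and at 110, 97.4 and 95.7 CPM with HCCLM3, a change of -0.30 (SE 0.070, adjusted p = 0.0192). RPS21 (chr20:62387103-62388520) was at 206, 209 and 208 CPM alone and 163, 169 and 176 CPM with HCCLM3, a change of -0.30 (SE 0.036, adjusted p = 0.00136). Neither gene overlapped between groups. RPS20, near the head of the small subunit, was at 451 to 471 and 359 to 392 CPM, a change of -0.29 (SE 0.039, adjusted p = 0.0021). RPS25 (chr11:119015712-119018691), required by several viral internal ribosome entry sites, was at 219 to 225 and 180 to 189 CPM, a change of -0.27 (SE 0.031, adjusted p = 0.00105). RPL31 (chr2:101002229-101019728), at the rim of the exit tunnel, was at 447 to 467 and 377 to 391 CPM, a change of -0.26 (SE 0.028, adjusted p = 0.000871). RPS19 (chr19:41860255-41872925), a gene mutated in Diamond-Blackfan anaemia, was at 517 to 539 and 448 to 460 CPM, a change of -0.22 (SE 0.025, adjusted p = 0.00118). In all 4 the groups did not overlap. RPS26, RPS25 and RPL31 overlap genes on the opposite strand.

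The other calls in LX2 were smaller. RPL10A, RPS24, RPS14, RPS18, RPL5 and RPL7 also rose, by 0.07 to 0.12 on the log2 scale. RPS29, RPL24, RPL41, RPL9, RPL27A, RPL23A, RPS9, RPL7A, RPL30 and RPL4 also fell, with log2 fold changes of -0.22 to -0.08. The 54 members that were not called in LX2 had values from -0.51 for RPL15 to 0.30 for RPL14, and in 19 of them the groups did not overlap. The matching share over all genes not called was not counted, so that these 19 have no background to be read against. Without LX2 alone replicate 2, 6 members rose (7.23%, beside 12.3% of all genes), and without its replicate 3, 7 did (8.43%, beside 11.9%). The partner-line markers KRT19 and KRT8 were higher in the same co-culture group, while KRT18 was lower. Summed HCCLM3 markers were at 162 to 168 CPM in LX2 alone and 145 to 152 with HCCLM3. The part of partner-line RNA in the LX2 changes was not tested.

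**Figure D2:**
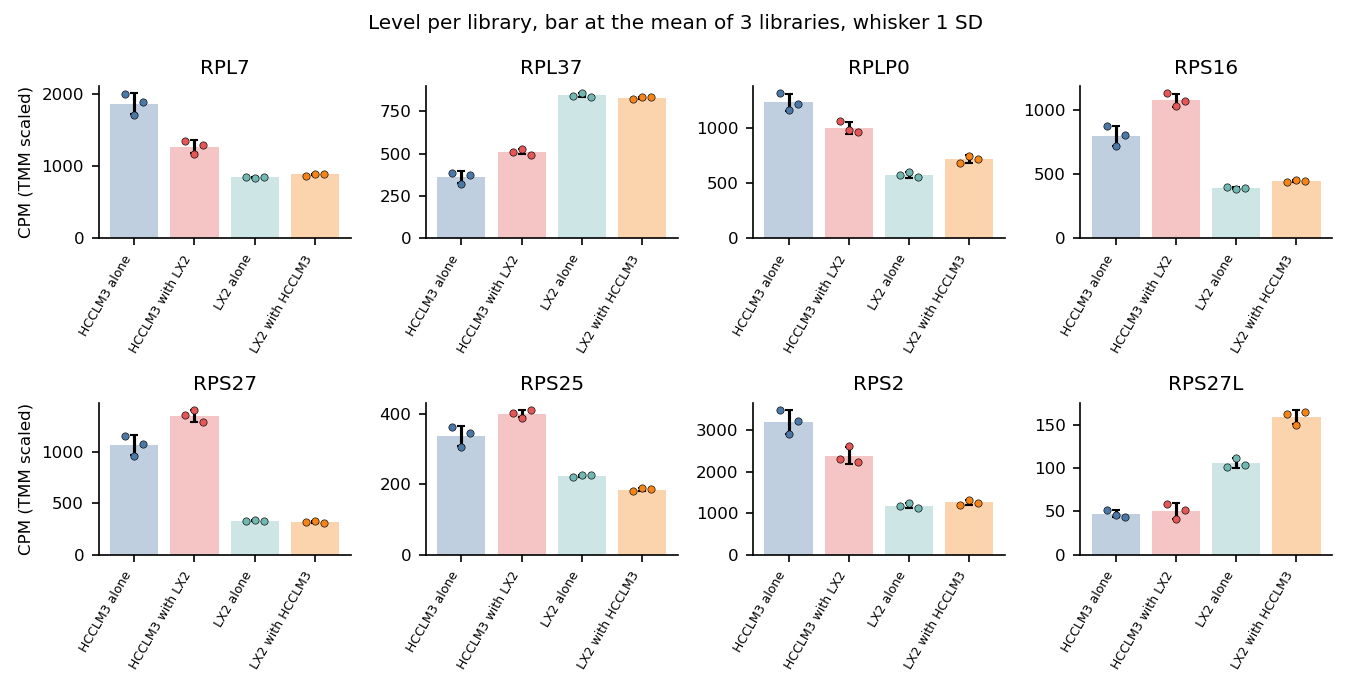
CPM of 8 members in every library; bars are the mean of 3 libraries, whiskers 1 SD, points the libraries, and the lines were scaled separately. RPL7, RPLP0 and RPS2 are lower in HCCLM3 with LX2 than alone, RPL37, RPS16 and RPS27 are higher, and RPS27L is higher in LX2 with HCCLM3.

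The lines differed in how several members responded. Of the 83 members, 5 had a higher change in HCCLM3 than in LX2 (6.02%, beside 9.39% of the 21959 genes tested) and 7 a lower one (8.43%, beside 11.3%; 20.7% of all genes in either direction), by the interaction term of edgeR's quasi-likelihood test over all 12 libraries, which were scaled together. RPLP0 differed by -0.65 (SE 0.091, adjusted p = 0.000514): it fell in HCCLM3 and rose in LX2. RPL7 differed by -0.65 (SE 0.095, adjusted p = 0.000668), falling in HCCLM3 and rising by 0.07 in LX2 (SE 0.019, adjusted p = 0.0381), at 836 to 848 CPM alone and 869 to 893 with HCCLM3. RPS25 differed by 0.48 (SE 0.087, adjusted p = 0.00265), with a change in HCCLM3 of 0.25 (SE 0.080) that did not pass the test (adjusted p = 0.0714). RPL37 differed by 0.49 (SE 0.089, adjusted p = 0.00273), and in LX2 it was at 835 to 858 CPM alone and 822 to 836 with HCCLM3. The groups of RPL37 overlapped there. These 4 differences kept their call under all 20 alternatives, although the LX2 call of RPL7 was lost under 8 of 14.

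Across the 83 members the changes in the lines showed no common order: Pearson's r was 0.04 and Spearman's rho 0.00, over genes that share libraries and are not independent. Changes in 36 members were called in at least 1 line and in 47 in neither. In both lines 4 members were called, among them RPL7 and RPLP0 in opposite directions and RPS16 in the same. Of all genes tested, 21.7% were called in HCCLM3 and 31.9% in LX2. The shares of all genes called in both lines or in neither were not counted. On library totals 19 members (22.9%, beside 13.6% of all genes) had a higher change in HCCLM3 and 3 (3.61%, beside 7.23%) a lower one. That scaling raises the HCCLM3 changes together. Without HCCLM3 alone replicate 1, 8 members had a higher change (9.52%, beside 8.57% of all genes). Without its replicate 2, 11 had a lower one (13.1%, beside 10.4%).

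The ribosomal stalk is built from RPLP0 and dimers of RPLP1 and RPLP2. In HCCLM3 the change of RPLP1 was -0.25 (SE 0.12, adjusted p = 0.182) and that of RPLP2 0.18 (SE 0.10, adjusted p = 0.257), and neither passed the test. In LX2 they were 0.04 (SE 0.022, adjusted p = 0.237) and -0.23 (SE 0.094, adjusted p = 0.117). Of the 3 stalk genes only RPLP0 was called, in both lines. RPL5 and RPL11, the proteins of the 5S particle, were at 461 to 514 and 480 to 522 CPM in HCCLM3 alone and 455 to 552 and 532 to 733 CPM with LX2. Their changes, 0.07 (SE 0.092, adjusted p = 0.655) and 0.28 (SE 0.12, adjusted p = 0.151), did not pass the test, and in RPL11 the groups did not overlap. In LX2, RPL5 rose by 0.07 (SE 0.018, adjusted p = 0.0335), a call lost under 9 of 14 alternatives, and RPL11 was at 507 to 530 and 523 to 525 CPM, which overlapped.

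RPS27A, made as a fusion with ubiquitin, was at 685 to 809 CPM in HCCLM3 alone and 552 to 653 with LX2. The groups did not overlap, but the change of -0.31 (SE 0.092) did not pass the test (adjusted p = 0.0547). In LX2 it was -0.06 (SE 0.042, adjusted p = 0.36). RPL10, which joins the large subunit late in its assembly, had changes of -0.07 (SE 0.086) in HCCLM3 and 0.03 (SE 0.020) in LX2, with adjusted p of 0.613 and 0.282, and the HCCLM3 value ran from -0.13 to 0.10 over the alternatives. RPS6 overlapped between the LX2 groups, at 630 to 647 CPM alone and 643 to 672 with HCCLM3 (adjusted p = 0.391).

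Paralogues let a cell exchange a ribosomal protein for a close relative. The ratio of a pair is given on FPKM and, since the lengths behind FPKM differ between the genes of a pair, also on counts where the results turn on it; its size depends on that scale. As a share of its partner's FPKM, RPS27L was at 3.63%, 3.82% and 3.68% of RPS27 in LX2 alone and at 5.93%, 5.35% and 6.16% with HCCLM3. In HCCLM3 it was at 0.472% to 0.556% alone and 0.339% to 0.502% with LX2. On counts the share was 31.1% to 32.8% in LX2 alone and 46.0% to 52.9% with HCCLM3, and 4.05% to 4.78% and 2.91% to 4.32% in HCCLM3. On both scales the LX2 groups did not overlap and the HCCLM3 groups did. RPS27 itself had a change of -0.06 in LX2 (SE 0.030, adjusted p = 0.181), and RPS27L one of 0.10 in HCCLM3 (SE 0.14, adjusted p = 0.663), from -0.02 to 0.27 over the alternatives. The RPS27L response differed between lines by -0.52 (SE 0.16, adjusted p = 0.0477), a call that was lost under most alternatives that left out a library.

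RPL36AL stood at 145%, 143% and 146% of the FPKM of RPL36A in HCCLM3 alone and at 102%, 85.5% and 94.7% with LX2. On counts it stood at 24.3% to 24.8% and 14.6% to 17.4%, so that which gene of the pair is higher turns on the scale. The 2 groups did not overlap on either scale, with a rise of RPL36A and a change of RPL36AL of -0.26 (SE 0.10) that did not pass the test (adjusted p = 0.12). In LX2 the ratio was 103% ± 2.19 alone and 95.1% ± 4.63 with HCCLM3 (SD, n = 3 each). RPL26L1 was at 34.0% to 35.3% of the FPKM of RPL26 in LX2 alone and 36.6% to 42.8% with HCCLM3, without overlap (16.0% to 16.6% and 17.2% to 20.1% on counts), and at 21.4% ± 0.624 and 20.8% ± 1.10 in HCCLM3, with overlap (SD, n = 3 each). RPL26 had changes of 0.02 (SE 0.085) in HCCLM3, from -0.04 to 0.20 over the alternatives, and 0.01 (SE 0.049) in LX2. RPL22L1 was at 9.84% to 14.8% of RPL22 in HCCLM3 alone and 9.73% to 17.5% with LX2, and at 22.2% to 27.3% and 27.2% to 34.4% in LX2. Those groups overlapped in both lines, and RPL22L1 had changes of -0.37 (SE 0.24) and 0.25 (SE 0.17) that did not pass the test.

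RPL39L stayed near 10% of RPL39 in every group, with group means of 8.60% to 10.3%. RPL39 had changes of -0.17 (SE 0.14) in HCCLM3, from -0.29 to 0.01 over the alternatives, and 0.15 (SE 0.11) in LX2 that did not pass the test. RPL3L, a heart and skeletal muscle paralogue, never passed 0.0343% of RPL3, whose own changes of -0.29 (SE 0.13) and 0.08 (SE 0.077) did not pass the test. RPL7L1 was at 1.51% to 3.86% of RPL7 in HCCLM3 alone and 2.80% to 3.86% with LX2, and at 5.23% to 9.20% and 4.43% to 6.60% in LX2, overlapping in both lines. RPL7A, which is related to RPL7 by name alone, had a change of -0.02 (SE 0.098) in HCCLM3, from -0.10 to 0.16 over the alternatives, and fell by 0.10 on the log2 scale in LX2 (SE 0.019, adjusted p = 0.00722).

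Between replicates the members moved together in HCCLM3, and in LX2 their shifts were small. Each member's log2 CPM was set against its mean in its group. In HCCLM3 alone the median deviation over the 83 members was 0.125 in replicate 1, -0.138 in replicate 2 and 0.018 in replicate 3, with 80, 6 and 55 members above their mean. In HCCLM3 with LX2 it was 0.082, -0.089 and 0.00, with 71, 21 and 41 above. Replicate 1 of each group was thus high for nearly all members and replicate 2 low, while over all genes tested 50.1% to 52.4% lay above their mean in each HCCLM3 library. Whether the replicate numbers pair the libraries of separate groups is not known.

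Both subunits took part. In replicate 1 of HCCLM3 alone the median was 0.126 for the large and 0.125 for the small subunit, and in replicate 2 it was -0.139 and -0.131. The mitochondrial ribosomal protein genes deviated by 0.10, -0.097 and 0.002 in the 3 libraries of HCCLM3 alone. A group of 298 other genes of high level and short coding sequence (at least 128 CPM and at most 650 coding bases) deviated by 0.095, -0.093 and 0.005. A list of 21 translation factors and partners known to carry the tract, not chosen by coding length, deviated by 0.096, -0.085 and -0.023. Ribosome assembly factors deviated by 0.035, -0.022 and -0.014. Other short, abundant messages and the translation factors thus shifted in the same libraries. The part of this shift in the comparison of groups was not tested. In LX2 the member median stayed between -0.014 and 0.009 in all 6 libraries, with 24 to 50 of 83 members above. The lowest was LX2 with HCCLM3 replicate 1, where 59 of 83 members lay below their mean, beside 50.0% of all genes tested.

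The median SD of a member between replicates was 0.138 in HCCLM3 alone and 0.119 in HCCLM3 with LX2, beside 0.102 and 0.0866 for 1409 other genes of high level. In LX2 it was 0.0312 alone and 0.0426 with HCCLM3, beside 0.037 and 0.0357 for 1532 other such genes.

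**Figure D3:**
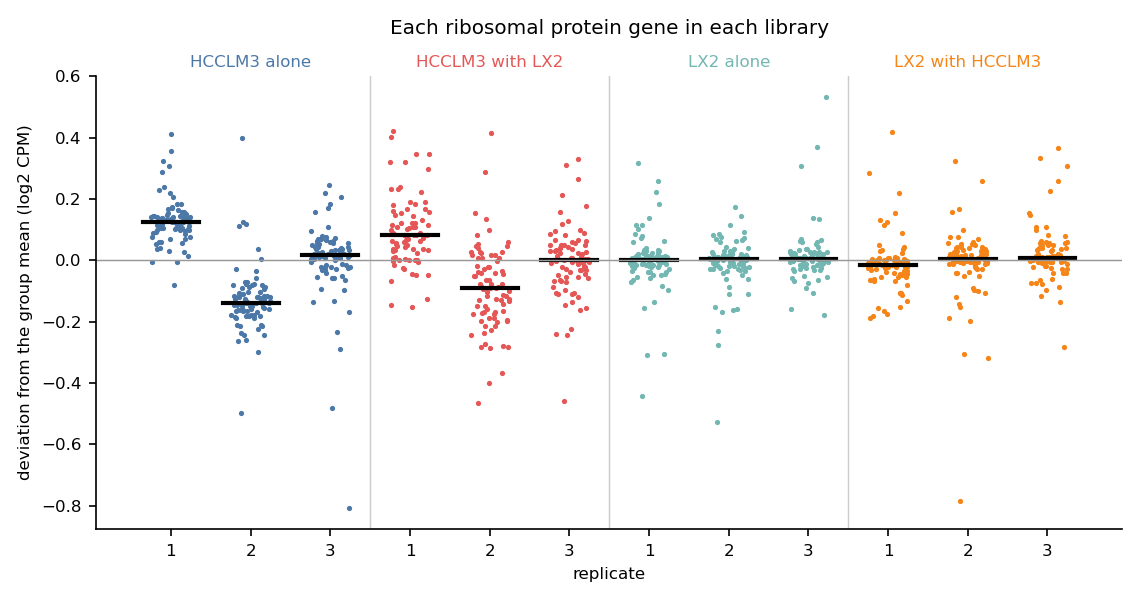
Deviation of each of 83 members from its group mean (log2 CPM, y axis) in each library (x axis, replicate number); bars are medians. Replicate 1 lies above 0 and replicate 2 below 0 in both HCCLM3 groups, and the LX2 medians lie near 0.

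Some members stood apart in a single library of deep coverage. A member was listed where its level in a library differed by at least 0.5 on the log2 scale from the mean of the other 2 and it had a mean of at least 3000 counts. RPL7L1 had 5352 counts in HCCLM3 alone replicate 3, against 13819 and 13737 in the others, a difference of -1.19 on the log2 scale. RPS3A, a small subunit protein near the messenger RNA exit, had 19815 counts in LX2 with HCCLM3 replicate 2, against 42814 and 44917, a difference of -1.18. RPL8 had 131569 counts in HCCLM3 alone replicate 3, against 260552 and 222343, a difference of -0.70. In each case the library was below the other 2 of its group.

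The same held for further genes. RPL32 was 0.74 lower on the log2 scale in HCCLM3 alone replicate 2, at 24984 counts against 43030 and 36658, and RPL29 was 0.80 higher in LX2 alone replicate 3, at 42513 against 23844 and 23736. RPL15 ran through 26704, 36027 and 46792 counts in LX2 alone, and its change of -0.51 (SE 0.19, adjusted p = 0.0858) was the lowest fold change in LX2 that did not pass the test. RPL31 was 0.60 higher in HCCLM3 with LX2 replicate 1, and RPS21 and RPS29 were 0.52 and 0.67 lower in its replicate 2. In the same library, no gene within 200 kb and no pseudogene named after these members changed in the opposite direction by 60% to 140% of the member's change in library-scaled counts; smaller opposite changes were not looked for.

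In HCCLM3 the change of a member went with the length of its coding sequence, a relation noticed after the values were seen. Over 83 members Spearman's rho between coding length and log2 fold change was -0.47 in HCCLM3 and 0.09 in LX2. The genes share libraries, so that this is a description across genes. The 11 members of at most 300 coding bases had a median change of 0.06, the 23 of 401 to 500 bases 0.03, the 9 of 651 to 800 bases -0.29 and the 7 longer ones -0.30. Of those 16 longest members 2 lay above 0, 1 in each class. The same rho was -0.26 over 1389 other genes of high level with a coding length and -0.06 over 13322 other genes of any level. RPL37 (291 bases) and RPS27 (252 bases) are short, and RPLP0 (951 bases), RPS2 (879 bases), RPS4X (789 bases), RPS6 (747 bases) and RPL7 (744 bases) are long, whereas RPL22, which also fell, has 384 coding bases.

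Replicates also differed along this axis. In HCCLM3 alone the deviation of a member from its group mean had a rho with coding length of -0.21, 0.41 and -0.22 in the 3 libraries. In HCCLM3 with LX2 it was -0.04, -0.01 and -0.07. The part of fragment or RNA length in the change between groups was not tested.

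**Figure D4:**
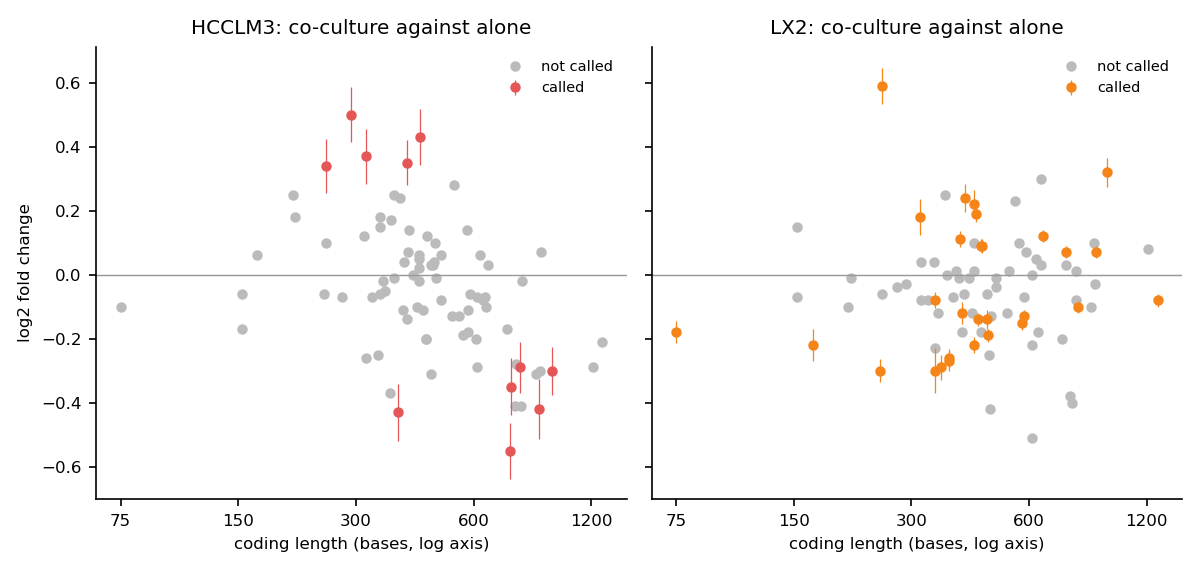
Log2 fold change (y axis, whiskers 1 SE for called members) against coding length (x axis, log scale) for 83 members in HCCLM3 (left) and LX2 (right). In HCCLM3 members above 650 coding bases lie mostly below 0, at medians of -0.29 and -0.30, and in LX2 no such order is seen (rho 0.09).

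Other genes of translation were counted in the same way, beside 10.1% of all genes that rose and 11.6% that fell in HCCLM3, and 15.4% and 16.6% in LX2; the lists were not tested against each other or against all genes. Of 51 ribosome assembly factors 0 rose and 38 fell (74.5%) in HCCLM3 (median change -0.50), and in LX2 9 rose (17.6%) and 11 fell (21.6%, median 0.00). In HCCLM3 NOP58, a core protein of box C/D snoRNPs, fell by 1.01 on the log2 scale (SE 0.096, adjusted p = 0.00127), RRP12 by 0.91 (SE 0.084, adjusted p = 0.00122) and RIOK2, a kinase of late small subunit assembly, by 0.93 (SE 0.090, adjusted p = 0.0014). In LX2 RSL24D1 rose by 0.29 (SE 0.025, adjusted p = 0.000332), as did DDX21 by 0.25 (SE 0.026, adjusted p = 0.000717), while EFL1 fell by 0.39 (SE 0.050, adjusted p = 0.00173). By the interaction term 37 of the 51 had a lower change in HCCLM3 than in LX2 and 1 a higher one. On library totals 25 fell and 1 rose in HCCLM3, and over all alternatives run 25 to 40 fell.

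Of 21 translation factors and partners whose messages are known to carry the same tract, 10 fell (47.6%) and 0 rose in HCCLM3 (median -0.35). EEF1A1, the elongation factor that delivers transfer RNA, fell by 0.63 (SE 0.072, adjusted p = 0.00237), PABPC4 by 0.59 (SE 0.067, adjusted p = 0.00227) and EIF3E by 0.65 (SE 0.082, adjusted p = 0.00337). In LX2 1 of the 21 rose (4.76%) and 4 fell (19.0%), EEF2 rising by 0.14 (SE 0.018, adjusted p = 0.00187) and EEF1A1 falling by 0.11 (SE 0.0092, adjusted p = 0.000246). On library totals 6 fell and 1 rose in HCCLM3. FAU and RACK1, ribosomal proteins that the naming rule leaves out, had changes of -0.09 and -0.20 in HCCLM3 and -0.11 and -0.23 in LX2, and neither passed the test.

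Of 13 host RNAs of small nucleolar RNAs, whose messages carry the tract but code for no abundant protein, 2 rose in HCCLM3 (15.4%) and 4 in LX2 (30.8%) and none fell in either. In HCCLM3 4 rose on library totals, 3 without HCCLM3 alone replicate 3 and 1 without HCCLM3 with LX2 replicate 3, and in LX2 1 fell without LX2 with HCCLM3 replicate 3. GAS5 rose in both, by 0.55 (SE 0.10, adjusted p = 0.0127) and 0.47 (SE 0.054, adjusted p = 0.0011). SNHG12 rose in HCCLM3 by 1.2 (SE 0.19, adjusted p = 0.0067) and SNHG1 in LX2 by 0.85 (SE 0.060, adjusted p = 0.000137). Of 78 mitochondrial ribosomal protein genes 1 rose (1.28%) and 9 fell (11.5%) in HCCLM3, and 7 rose (8.97%) and 16 fell (20.5%) in LX2. In HCCLM3 6 fell without HCCLM3 alone replicate 1, 13 without its replicate 2 and 3 without its replicate 3, and 4, 5 and 2 fell without HCCLM3 with LX2 replicate 1, 2 and 3. In LX2 10, 11 and 9 fell and 5, 4 and 6 rose without LX2 alone replicate 1, 2 and 3, and 10, 11 and 10 fell and 3, 3 and 6 rose without LX2 with HCCLM3 replicate 1, 2 and 3. Their HCCLM3 median of -0.14 turned to 0.03 on library totals, with 4 rising and 2 falling.

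Among 17 genes of mTORC1 and MYC control 1 rose (5.88%) and 2 fell (11.8%) in HCCLM3, and 4 rose (23.5%) and 3 fell (17.6%) in LX2, with the shares that fell close to those of all genes. The rise in HCCLM3 was lost in every fit that left out a library except HCCLM3 alone replicate 1, where 2 rose. RPTOR, the scaffold of mTORC1, fell in HCCLM3 by 0.76 (SE 0.10, adjusted p = 0.00438) and rose in LX2 by 0.18 (SE 0.032, adjusted p = 0.00679). Among 14 genes of ribosome quality control and the 5S particle route to p53, 1 rose (7.14%) and 4 fell (28.6%) in HCCLM3 and 2 rose (14.3%) and 3 fell (21.4%) in LX2. The rise in HCCLM3 was CDKN1A, a cell cycle inhibitor and p53 target, by 0.74 (SE 0.10, adjusted p = 0.00419). In LX2 MDM2 rose by 0.42 (SE 0.058, adjusted p = 0.00225). By the interaction term the change of MDM2 in HCCLM3 differed from that in LX2 by -0.79 (SE 0.15, adjusted p = 0.00409). Both genes are rises from a list in which more genes fell than rose in each line.

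**Figure D5:**
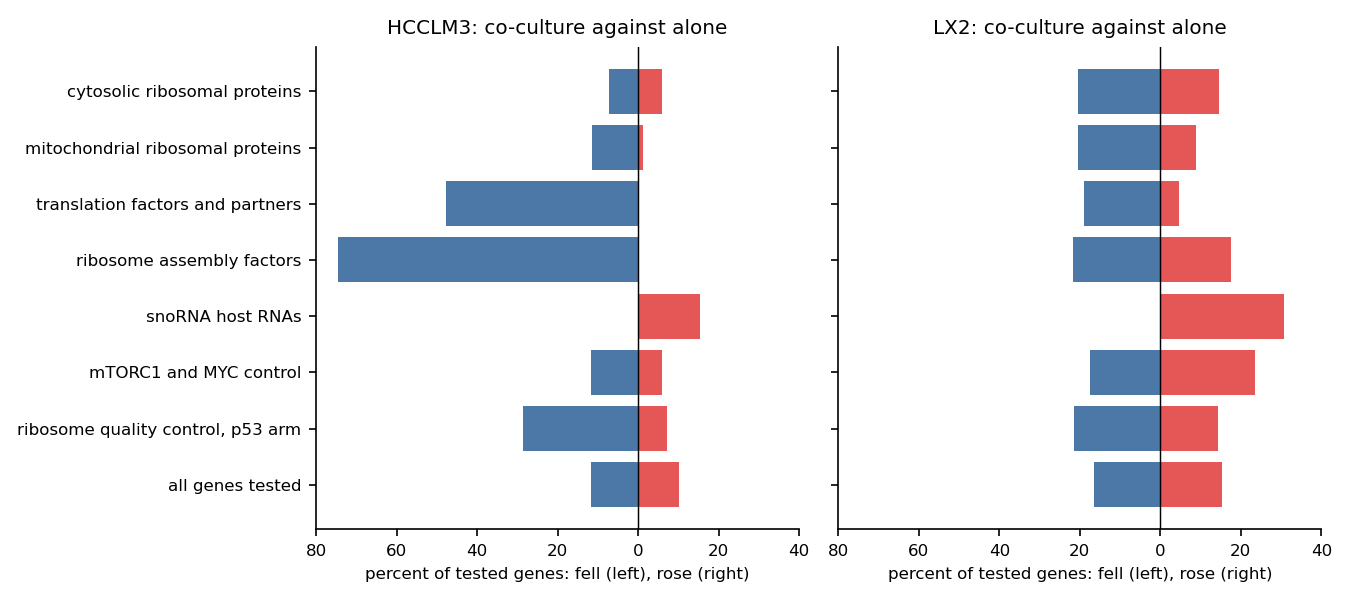
Percent of tested genes that rose (right of 0) and fell (left of 0) in co-culture against alone, by gene list, in HCCLM3 and LX2. In HCCLM3 38 of 51 ribosome assembly factors fell beside 6 of 83 cytosolic ribosomal protein genes, and the bottom bar gives all genes tested.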

How the data were processed

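Raw counts and FPKM per gene were taken from the tables the authors deposited, 1 per line, with a count and an FPKM column per library, per the file headers; FPKM is scaled to library size and gene length. Libraries were made from poly(A) RNA and read as pairs, per the labels' protocols. The submitters' processing notes name HISAT2 2.0, StringTie 1.3.0 and Bowtie 0.12.2, and a mouse build, mm8, although the gene identifiers and coordinates are human; all 84 members have the chromosome and strand of GENCODE 29 (GRCh38), and 65 share a start or end with it. How reads that match several copies were counted, and whether strand was used, no source used here states.

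Counts were tested with edgeR 4.0.16 (quasi-likelihood, TMM factors, filterByExpr with a minimum count of 10 and a total of 15), Benjamini-Hochberg over all genes tested, two-sided, at 0.05; limma 3.58.1 on log2(FPKM + 1) and log2(FPKM + 0.1) and DESeq2 1.42.0 served as alternatives, in R 4.3.3. CPM are TMM-scaled within a line, with factors of 0.926 to 0.953 for HCCLM3 alone, 1.05 to 1.08 for its co-culture and 0.989 to 1.01 for LX2. The tests were tried on simulated counts. Coding lengths came from GENCODE 29 and promoters from RefSeq. Members of each line were named by a rule: up to 6 rises and 6 falls with the largest changes, 5 members with the smallest p for the difference between lines, stalk, 5S particle, RPS6, RPS27A and paralogue sets, and the 3 highest FPKM; up to 3 genes with the smallest p stand for each other list. RPL15, RPL29, RPL32, RPS3A, RPS29 and other members with a library that stood apart, RPTOR in LX2 and the relation with coding length were chosen after their values were seen. Some genes that enter the counts are not reported here by name. The members and the gene lists were chosen with earlier results of these data known. Depth was 61836616 to 77712308 counts per library, and tested members had at least 827 counts in every library, so that spread between libraries rather than counting limits precision.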

Additional observations from a re-analysis of the deposited data

Results flagged for a closer look

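The members below are listed because their response to co-culture differed between HCCLM3 and LX2 by the interaction term of edgeR's quasi-likelihood test (adjusted p under 0.05, log2 scale, HCCLM3 minus LX2). A lower response in HCCLM3 was found for RPL7 (-0.65) and RPLP0 (-0.65), which fell in HCCLM3 and rose in LX2, for RPS2 (-0.55), RPS6 (-0.42), RPL22 (-0.39) and RPS4X (-0.33), which fell in HCCLM3 and were not called in LX2, and for RPS27L (-0.52), which rose in LX2 and was not called in HCCLM3. A higher response in HCCLM3 was found for RPL37 (0.49), RPS27 (0.37) and RPL36A (0.29), which rose in HCCLM3 and were not called in LX2, and for RPS25 (0.48), which fell in LX2 and was not called in HCCLM3. The calls of RPL22, RPL36A and RPS27L were lost under most of the 20 alternatives, and that of RPS4X on library totals and with limma; RPS6 lost its call on library totals.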

How the results depend on the processing

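In HCCLM3, 5 members rose and 6 fell. On library totals 15 (18.1%) and 1 (1.2%) did, beside 16.5% and 5.76% of all genes. With limma 14 (16.9%) and 1 (1.2%) did on log2(FPKM + 1) and on log2(FPKM + 0.1). Of all genes 17.2% and 6.13% did in the first limma fit and 17.4% and 6.15% in the second. With no filter on low counts 3 fell (3.57%, beside 5.95% of all genes). Leaving out 1 library in turn gave 1 to 5 rises and 1 to 8 falls in HCCLM3. Of all genes 4.37% to 7.0% rose and 5.84% to 8.4% fell there. In LX2, where 12 rose, it gave 6 to 10 rises, beside 11.4% to 12.3% of all genes. For the difference between lines (5 higher, 7 lower in HCCLM3), library totals gave 19 and 3, beside 13.6% and 7.23% of all genes. Limma with a pseudocount of 1 gave 20 (24.1%) and 4 (4.82%), beside 17.2% and 10.6% of all genes. With 0.1 it gave 18 (21.7%) and 4 (4.82%), beside 15.9% and 9.0%. Leaving out 1 library gave 4 to 8 and 5 to 11, beside 6.81% to 8.88% and 8.73% to 10.4% of all genes. With the replicate number as a block 10 fell in HCCLM3, 6 rose in LX2, and 8 and 13 differed between lines. Over all genes tested, deviations of same-numbered libraries correlated by 0.0171, 0.0452 and 0.0225 in HCCLM3 and by -0.039, 0.0115 and -0.0408 in LX2. Such low values cannot decide whether the numbers pair the libraries. The share of counts was 6.36%, 6.73%, 4.14% and 4.11% in HCCLM3 alone, HCCLM3 with LX2, LX2 alone and LX2 with HCCLM3 outside the mitochondrial genome, 6.53%, 4.08% and 4.04% in the last 3 with pseudogene counts added, and 4.33% and 4.32% of summed FPKM in the LX2 groups. On library totals the spread of member medians in LX2 alone was 0.002. For 67 values of named members, 868 recomputed values kept their call or stayed not called. A further 87 lost the call, 13 gained it and 0 turned direction with a call. Among the 868, values that were not called could change sign, as RPL10 in HCCLM3 did (-0.07, and -0.13 to 0.10 over the alternatives). Leaving out replicates for the share, and other scalings for the joint movement, were chosen after seeing the data. The numbers of members called depended on the scaling, which moves all genes together. The cause of these shifts was not tested.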
